A study of Mus musculus with 12 samples.

Results

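Gene bodies that carried almost no methylation outside CG sites in the cortex of young wild-type mice are described here. Such methylation (mCH) is that of cytosines not followed by guanine, and the level of a gene body is its methylated non-CG calls over all its non-CG calls, in percent. Members were chosen by that level: a gene body entered when it had a mean of at least 5000 calls over the 12 libraries and a level of at most 0.45% in the 4 wild-type (WT) libraries of postnatal day 40 (P40) when pooled. Symbols starting Hox, Rpl, Rps, Nduf, Cox, Atp5, Uqcr or Pcdh were dropped by name, which removed 7 gene bodies at or under that level. The choice left 538 gene bodies (3.72%) of 14459 that passed the call minimum and the name filter, out of 23882 genes in all.

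All libraries came from cortical DNA of C57BL/6 mice, sequenced whole after bisulfite conversion, which turns unmethylated cytosines into thymine. At P40 there were 4 WT libraries and 4 from mice whose genotype is given as miR29 KO, a knockout (KO) of a microRNA. At 4 months there were 2 WT libraries and 2 of the genotype Dnmt3a mi5, whose titles read DNMT3AmiR29MUT. Dnmt3a encodes a DNA methyltransferase, and the labels do not say what mi5 changes or in which cells. Nothing in the labels says whether libraries of a group came from separate animals, so a p-value measures only the spread between these libraries. Because the choice read the P40 WT libraries, only the contrast between the 4-month groups was tested. The P40 libraries entered those tests through the estimate of the spread, which is shared by all 12 libraries.

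In the brain, mCH builds up in neurons after birth and is laid down by DNMT3A. Its level over a gene body tends to be low where the gene is strongly transcribed in neurons and high where it is silent. miR-29 is a microRNA known to target the Dnmt3a transcript. Whole cortex holds neurons, glia and vessels, so a change in the cell mix and a change within cells cannot be told apart.

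The chosen gene bodies fell into separate kinds, a division made after their values were seen. Gene clusters, in which at least 2 of the 5 nearest protein-coding genes on each side share the start of the name, gave 125. Single genes gave 355, and 58 had an uncharacterised symbol such as a Gm or Rik name. Of the single genes, 235 had a CpG-dense promoter (at least 50% G and C and an observed over expected CG count of at least 0.6 in the 300 bases from 250 before to 50 after the start), 56 a CpG-poor one and 64 no promoter in the RefSeq table. The promoters below show both ends of this range. Where a gene had several listed promoters, the promoter with the most CG stood for it. Kif1a, a kinesin that carries synaptic vesicle precursors along axons, and Ranbp1, a partner of the Ran GTPase in nuclear transport, are single genes, while Skint5, of a family of immunoglobulin-like skin and thymus genes, and Pate9, of a family of small secreted reproductive tract proteins, lie in clusters. Capitals mark every CG, a motif that reads the same on both strands.
Kif1a: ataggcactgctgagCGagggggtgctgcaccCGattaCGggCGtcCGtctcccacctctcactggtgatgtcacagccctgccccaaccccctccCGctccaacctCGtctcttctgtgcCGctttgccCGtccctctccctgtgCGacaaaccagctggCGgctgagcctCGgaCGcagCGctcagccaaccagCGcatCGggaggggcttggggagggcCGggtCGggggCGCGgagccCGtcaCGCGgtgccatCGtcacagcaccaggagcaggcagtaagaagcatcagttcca
Ranbp1: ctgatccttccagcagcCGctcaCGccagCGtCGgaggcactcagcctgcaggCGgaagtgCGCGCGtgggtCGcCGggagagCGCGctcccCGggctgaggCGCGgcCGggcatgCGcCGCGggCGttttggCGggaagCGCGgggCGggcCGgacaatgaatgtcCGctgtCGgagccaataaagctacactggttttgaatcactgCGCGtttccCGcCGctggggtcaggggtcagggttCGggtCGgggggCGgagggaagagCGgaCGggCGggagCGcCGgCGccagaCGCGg
Skint5: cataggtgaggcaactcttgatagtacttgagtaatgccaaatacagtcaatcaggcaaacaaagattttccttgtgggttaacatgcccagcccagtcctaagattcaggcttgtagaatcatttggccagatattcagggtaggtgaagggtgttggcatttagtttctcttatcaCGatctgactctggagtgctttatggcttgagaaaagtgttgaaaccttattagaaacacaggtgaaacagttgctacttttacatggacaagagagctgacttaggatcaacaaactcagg
Pate9: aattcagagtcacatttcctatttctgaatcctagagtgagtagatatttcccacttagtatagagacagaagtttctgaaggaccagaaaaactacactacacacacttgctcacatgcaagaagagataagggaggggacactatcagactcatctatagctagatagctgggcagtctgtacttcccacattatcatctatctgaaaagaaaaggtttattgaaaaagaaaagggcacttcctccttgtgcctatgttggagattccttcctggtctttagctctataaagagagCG

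These are RefSeq sequences of build GRCm38.p6, written 5′ to 3′ on the gene's strand, at chr1:93101825-93102124, minus strand for Kif1a, chr16:18248645-18248944, minus strand for Ranbp1, chr4:113999454-113999753, minus strand for Skint5 and chr9:36541914-36542213, minus strand for Pate9. The deposited tables use mm9, so no position is given for the gene bodies themselves. Kif1a had 24 CG and Ranbp1 42, against 1 each for Skint5 and Pate9. Over all 27025 genes with a listed promoter, 94.6% held at least 1 CG and 35.9% were CpG-dense. Among protein-coding low-mCH genes a promoter was listed for 84.5%. It was CpG-dense in 80.8% of the single genes, with a median of 24 CG, and in 4.59% of the cluster genes, with a median of 1. For all cluster genes that passed the filters, 83.3% of which had a listed promoter, the share was 14% and the median 3. For all single genes that passed the filters the share was 66.2% and the median 21, but only 79.4% of them had a listed promoter. Among low-mCH genes a promoter was listed for 89.3% of the cluster genes and 82.9% of the single genes. The listing thus differed for both kinds, so both comparisons are void as a check.

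Libraries held 399563492 to 732985426 non-CG calls over all genes. The median low-mCH gene body had 9277.58 to 11322.5 calls in P40 libraries and 5423.25 to 6483.75 at 4 months, where 28 to 32 of them were methylated. A difference in a single gene at 4 months therefore rests on few methylated calls. Pooled over the 538, the first 4-month WT library had 24510 methylated calls and a level of 0.465% (95% Wilson interval 0.459 to 0.470, counting error only). The lowest 1% of tested genes lay at or under 0.219% to 0.287% in each library. How much of a level near 0.4% is unconverted cytosine was not tested, because conversion rates were not used here.

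Other cortical libraries also showed low levels for these genes. In the pooled 4-month WT libraries, 285 of the 538 (53.0%) were again at or under 0.45% and 503 (93.5%) at or under 0.6%, against 1.67% and 8.70% of the other 13921 gene bodies that passed the filters. The median was 0.444% for the low-mCH gene bodies and 1.36% for the others. Only 3 exceeded 1%, namely Gm10256, Gm10352 and Gm4064 on the Y chromosome, whose calls were identical in every library. They are counted as 3 of the 538 but carry the values of 1 region. Their level was 1.32%, 1.94%, 4.18% and 4.67% in the 4 libraries, 1 per group, with little coverage of Y-linked genes, and 0.337% to 1.22% in the other 8. Kdm5d and Zfy2, also on Y, had under 500 calls in some library and were not tested, so tests covered 536.

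Just inside the level limit stood Dnajc14, Chmp7 and Edrf1, each at 0.45%, and just outside it Sf3b2, Vmn2r48 and Akap8l, also at 0.45% when rounded. At 4 months Dnajc14 read 0.484% and 0.465% in WT and 0.784% and 0.740% in mi5, and Akap8l read 0.517% and 0.558% in WT and 0.659% and 0.728% in mi5.

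The 4-month comparison asked whether mCH differed between Dnmt3a mi5 and WT cortex. Across the genome the mi5 libraries were much higher: the pooled level of all 19826 tested genes was 1.55% and 1.54% in WT and 2.74% in both mi5 libraries, a ratio of 1.78. The low-mCH gene bodies gained far less. Their pooled level was 0.465% and 0.446% in WT and 0.543% and 0.510% in mi5. Both mi5 libraries lay above both WT libraries, and the means were 0.455% ± 0.0132 and 0.527% ± 0.0236 (SD, n = 2 each), a gain of 0.0714 percentage points and a ratio of 1.16. The mi5 libraries also had a higher lowest 1% of genes (0.283% and 0.249%) than WT (0.238% and 0.219%). With that level subtracted from each library the gain was 0.0334 points. The level comes from the lowest of the same tested genes, so subtracting it also takes out any gain those genes have in common.

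**Figure D1:**
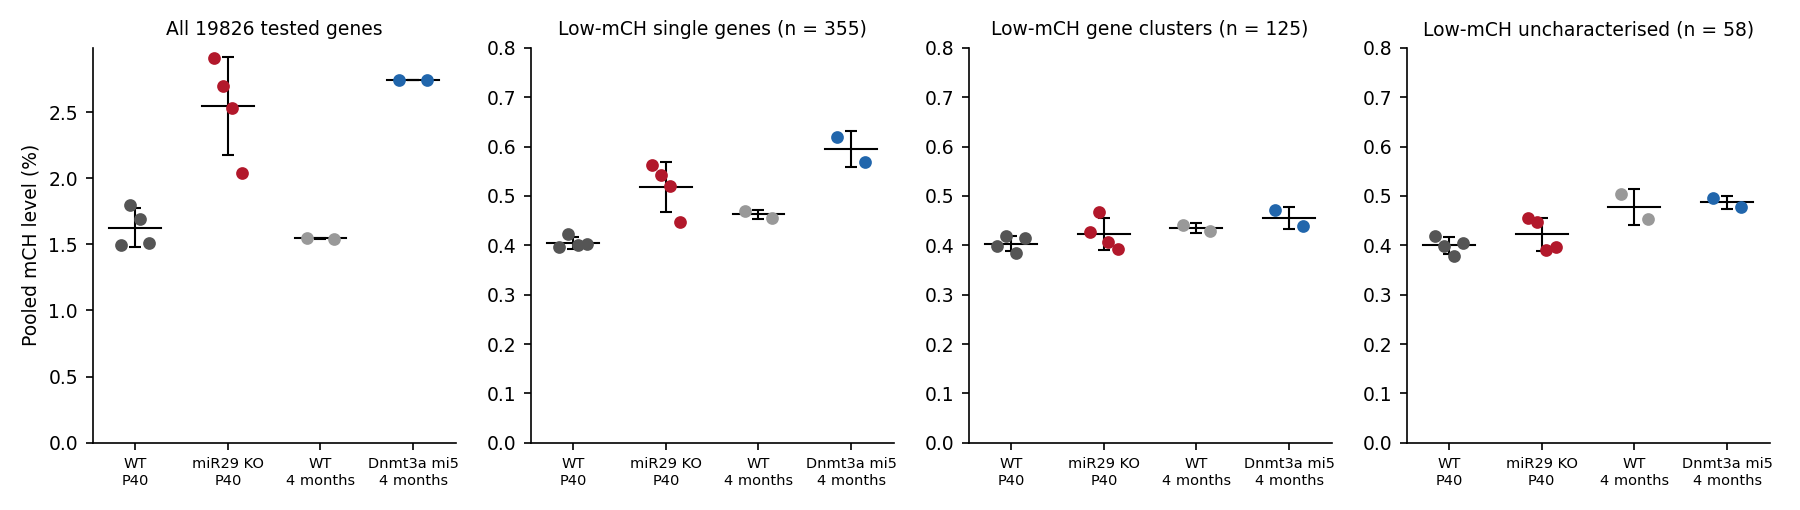
Pooled mCH level in percent (vertical axes, from 0) for each library of the 4 groups, for all 19826 tested genes and for the 3 kinds of low-mCH gene bodies; points are libraries, lines and bars are the mean ± SD. The ratio of mi5 to WT at 4 months is 1.78 for all genes, 1.28 for single genes and 1.05 for gene clusters, where the libraries of the groups overlap.

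Tested gene by gene, 8 of 536 rose in mi5 and 0 fell (quasi-binomial model on all 12 libraries, dispersion moderated with limma, Benjamini-Hochberg adjusted p under 0.05). That is 1.49%, against 58.8% of all tested genes that rose and 73% of the other genes that passed the filters. At an unadjusted p under 0.05 there were 16 (2.99%), all higher in mi5, against 64.8% of all tested genes. If no low-mCH gene body differed, a share of about 0.05 would lie under that cut, provided the spread is estimated well. The count, in either direction, depended on the fit. It was 62 (14898 of all tested genes) with the 4-month libraries alone and 83 (14940) with limma on percent levels. With the lowest 1% level subtracted it was 10 (12315). The count of 16 therefore does not decide whether more differed than chance gives. The adjustment ran over all tested genes, most of which rose, so its cut was lenient here. Farsa passed at an unadjusted p of 0.0281 in the same model. No adjustment within the 536 alone was made, so the 8 are not set apart from chance within them. Both mi5 libraries stood above both WT libraries in 221 (41.2%), against 86.2% of all tested genes, and below both in 38 (7.09%), against 1.03%. The log2 odds ratio (odds of a methylated call in mi5 over those in WT) was positive in 411 (76.7%), against 95.9%. Its median was 0.28, against 0.83 over all tested genes.

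Precision differed as well. The median standard error of the log2 odds ratio was 0.47 for the low-mCH gene bodies and 0.31 over all tested genes. It depends on both the methylated calls and the moderated dispersion, and their parts were not told apart. Skint5, with 295825 mean calls, still had a standard error of 0.38. In 445 (83%) the 95% interval held both 0 and the median of all genes, which was so for 33.8% of all genes. For the 445 the test does not tell a usual gain from none. In 75 (14%) the interval lay wholly under the median of all genes, against 1.4% of all genes. With each library centred on its median level, which takes 0.87 off the log2 odds ratio of all genes, the median of the low-mCH gene bodies was -0.59 and that of all genes -0.04.

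The number past the threshold depended on the estimate of spread and on single libraries. It was 48 higher and 2 lower when the 4-month libraries alone were fitted, against 73.4% of all tested genes higher. With limma on percent levels it was 58 higher and 3 lower, against 72.3% of all tested genes higher. It was 18 without the trend and robust steps of the moderation (54.6% of all tested genes) and 24 without the fourth miR29 KO library (67.2% of all). Without the first or second WT library of 4 months it was 0 and 1, and the share of all tested genes fell to 23.6% and 31.8%. Without the first or second mi5 library it was 2 and 3, against 38.9% and 43% of all. In these fits the lone library left is assumed to vary like the other groups. After subtraction of the lowest 1% level it was 5, against 55.9% of all. After centring it was 0, as it was over all 19826 tested genes, of which 7 were lower. At an unadjusted p under 0.05 in that centred model there were 170 of 536, against 1814 of the 19826, in either direction.

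The 8 past the threshold comprise 7 single genes and Pate9, which lies in a cluster. They were named on the condition that their mi5 and WT libraries of 4 months do not overlap. That lack of overlap therefore adds no support. The adjusted p-values of the 8 hold over all tested genes and were not computed within the low-mCH gene bodies alone. Pate9 read 0.308% and 0.641% in the WT libraries of 4 months and 1.57% and 1.95% in mi5. Both mi5 libraries stood far above both WT libraries. The log2 odds ratio was 1.90 ± 0.47 (SE) and the adjusted p 0.00398 (limma-moderated quasi-binomial model). At P40 it read 0.307% to 0.503% in WT and 0.442% to 0.689% in miR29 KO, where the groups overlapped.

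Ranbp1 read 0.171% and 0.378% in WT and 0.921% and 0.584% in mi5, a log2 odds ratio of 1.47 ± 0.55 (adjusted p = 0.0289, limma-moderated). Actr1b, a subunit of the dynactin complex that works with the dynein motor, read 0.352% and 0.285% in WT and 1.66% and 0.614% in mi5, so the mi5 libraries were far apart, and its log2 odds ratio was 1.69 ± 0.62 (adjusted p = 0.0252, limma-moderated). Farsa, the alpha subunit of phenylalanyl-tRNA synthetase, read 0.326% and 0.392% in WT and 0.899% and 0.683% in mi5. All 3 had mi5 libraries that did not overlap with WT, which their naming required.

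Edrf1, a factor named for erythroid differentiation and the most deeply covered of the 8, read 0.425% and 0.333% in WT and 0.8% and 0.837% in mi5, a log2 odds ratio of 1.11 ± 0.36 (adjusted p = 0.0149, limma-moderated). Lman2, a lectin of the early secretory pathway, read 0.556% and 0.340% in WT and 1.06% and 0.890% in mi5. Nckipsd, which binds the adaptor Nck, read 0.535% and 0.437% in WT and 1.12% and 0.971% in mi5. Lrrc29, a leucine-rich repeat protein, read 0.473% and 0.227% in WT and 0.834% and 0.915% in mi5. Again no mi5 library fell within the WT range, which their naming required. Adjusted p-values of Farsa, Lman2, Nckipsd and Lrrc29 were 0.0483, 0.0350, 0.0415 and 0.02 (limma-moderated). After subtraction of the lowest 1% level Ranbp1 (0.0559), Farsa (0.0667) and Nckipsd (0.0752) did not pass, in adjusted p of the same model. None of the 8 passed without the first WT library of 4 months, and of them Pate9 alone passed without the second or without the first mi5 library. Without the second mi5 library Pate9, Actr1b and Ranbp1 passed. Farsa fell short (adjusted p of 0.0535 to 0.0632 in the same model) when any 1 of the P40 libraries WT 1 to 4, KO 2 or KO 3 was left out, and Nckipsd (0.0527 to 0.0566) when WT 3, KO 2 or KO 3 was. Both also fell short with the replicate number as a block (0.0605 and 0.0507) and with no minimum of calls (0.0594 and 0.0522).

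**Figure D2:**
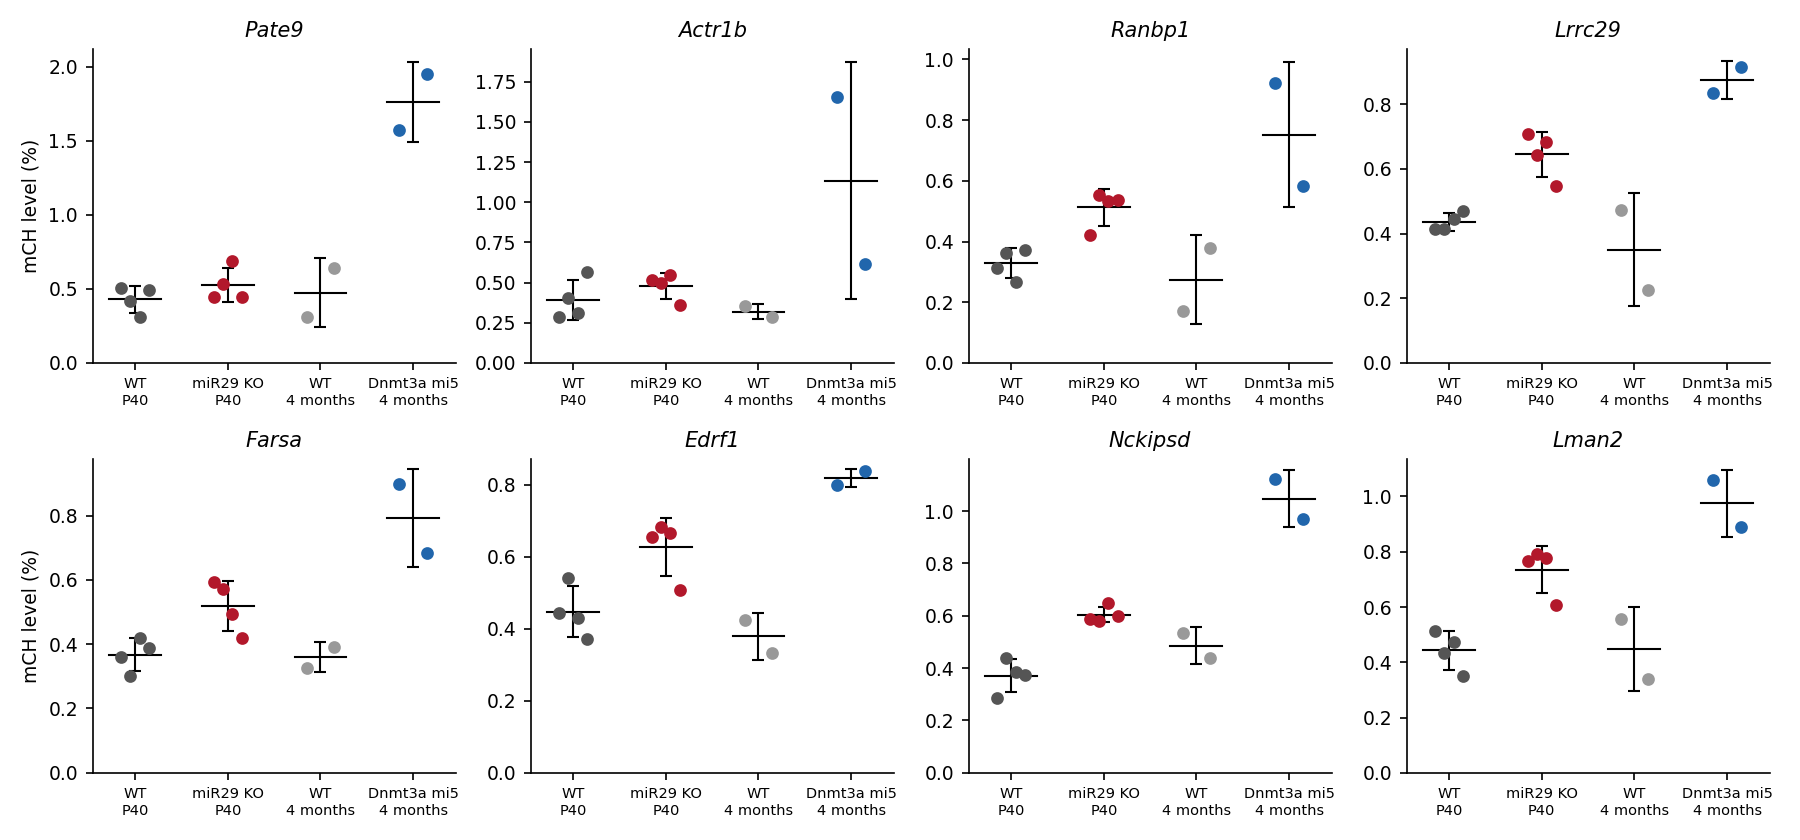
mCH level in percent (vertical axes, from 0) in every library for the 8 genes past the threshold at 4 months; points are libraries, lines and bars are the mean ± SD of each group. In each gene both mi5 libraries lie above both WT libraries of 4 months, which the naming of the genes required. In Pate9 the mi5 libraries reach 1.57% and 1.95%.

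By kind, the gain at 4 months was larger in single genes than in clusters; these counts and levels are descriptions with no test of the difference between kinds. The 355 single genes had a pooled level of 0.469% and 0.455% in WT and 0.620% and 0.568% in mi5, a ratio of 1.28. Those with a CpG-dense promoter read 0.467% and 0.451% in WT and 0.634% and 0.576% in mi5 (ratio 1.32), and those with a CpG-poor promoter 0.490% and 0.457% in WT and 0.596% and 0.545% in mi5 (ratio 1.21). The 125 cluster genes read 0.441% and 0.428% in WT and 0.470% and 0.439% in mi5, so the groups overlapped, at a ratio of 1.05. The 58 with uncharacterised symbols read 0.503% and 0.452% in WT and 0.497% and 0.478% in mi5. With the lowest 1% level subtracted, the difference was 0.0935 points for single genes, while it turned from 0.0202 to -0.0177 for clusters and from 0.00952 to -0.0281 for uncharacterised symbols. Because the subtraction also takes out any gain common to the lowest genes, the negative values do not show a loss.

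The median log2 odds ratio was 0.36 for single genes, 0.10 for cluster genes and 0.05 for uncharacterised symbols. Cluster genes outside the low-mCH set had a median of 0.82, and 572 of 930 (61.5%) rose. Among the cluster genes 1 of 125 passed (0.8%), and the 95% interval lay wholly under the median of all genes in 35 (28%). Among single genes with a CpG-dense promoter 5 of 235 passed (2.13%), and the interval lay wholly under that median in 12 (5.11%). Cluster genes were the deeper covered, with a median of 12863.3 mean calls against 8128.13.

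**Figure D3:**
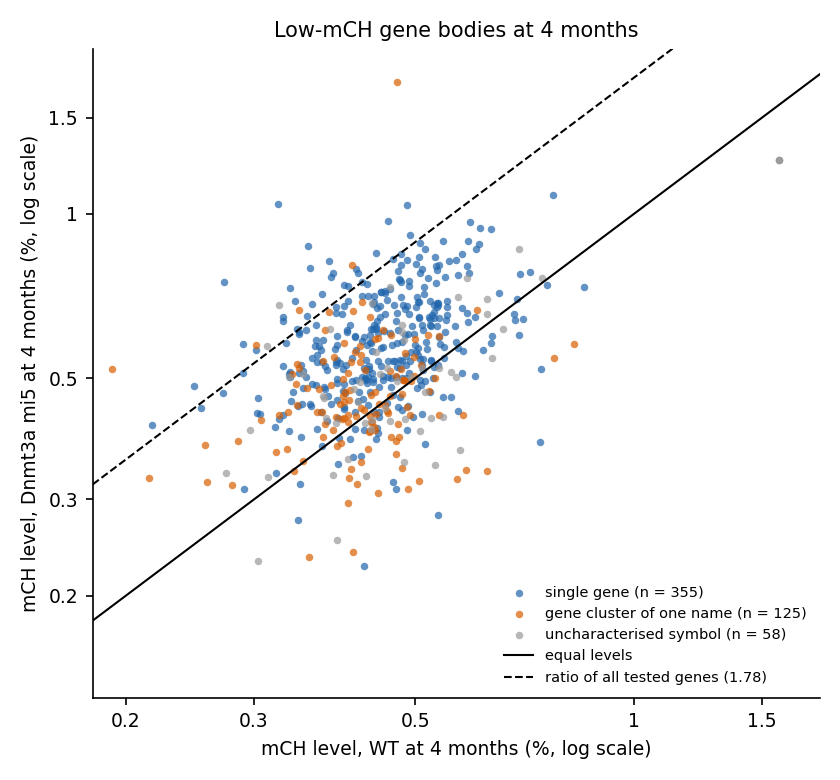
mCH level of each of the 538 low-mCH gene bodies in WT (horizontal) and Dnmt3a mi5 (vertical) at 4 months, in percent on log axes, coloured by kind; each point pools the 2 libraries of a group. The dashed line is the ratio of all tested genes, 1.78; the log2 odds ratio is positive in 203 of 235 single genes with a CpG-dense promoter and in 82 of 125 cluster genes.

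The size of the gain in points rose with the P40 WT level across the ranges below. The limit is the edge of a range, so a break there was not tested. Among all gene bodies that passed the filters, the median difference between mi5 and WT at 4 months was 0.0907 points for those at or under 0.45% in WT at P40, 0.257 points from 0.45% to 0.6% and 0.438 points from 0.6% to 0.8%. It reached 1.76 points from 2% to 3%. The median log2 odds ratio was 0.28 at or under 0.45%, 0.55 from 0.45% to 0.6% and 0.72 from 0.6% to 0.8%. Cluster genes gained less than single genes in the lower ranges: 0.0254 against 0.127 points at or under 0.45%, and 0.123 against 0.272 points from 0.45% to 0.6%. From 2% to 3% the medians were 1.75 and 1.77 points.

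**Figure D4:**
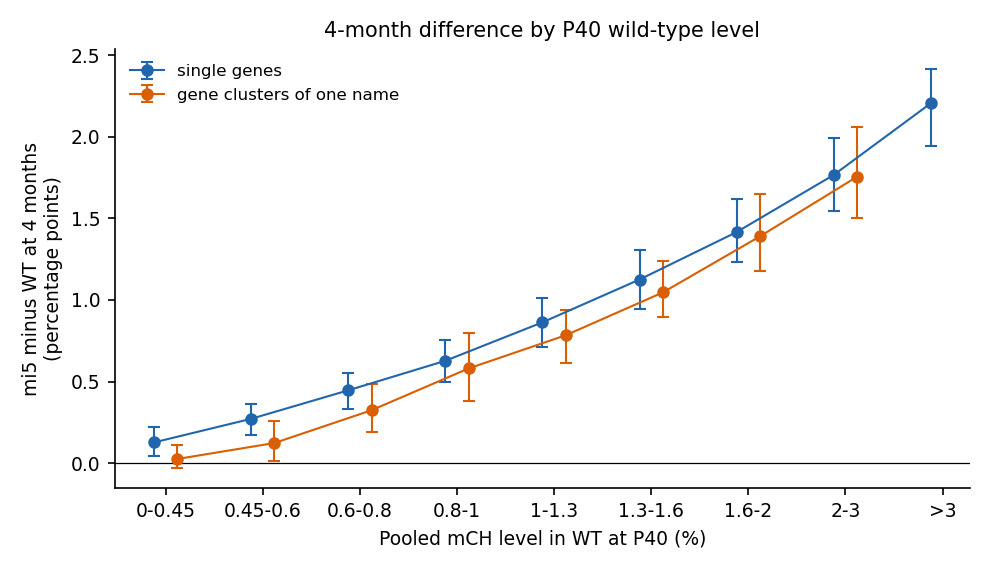
Difference of mi5 minus WT at 4 months in percentage points (vertical) against the range of the pooled P40 WT level in percent (horizontal), for single genes and gene clusters; points are medians over genes and bars run from the lower to the upper quartile. The gap between the kinds is seen at the low levels (0.127 against 0.0254 points at or under 0.45%) and is small from 2% to 3% (1.77 against 1.75 points).

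The P40 levels are given as a description with no test, since the choice used the WT libraries of this contrast. Pooled levels were 0.4%, 0.417%, 0.392% and 0.406% in WT and 0.503%, 0.505%, 0.461% and 0.422% in miR29 KO, where the choice itself holds the WT values low. To lessen the effect of the choice it was repeated 4 times on 3 WT libraries, and the library left out was read. Left-out libraries then had a mean of 0.436% ± 0.0239 (SD over 4 repeats) and the KO libraries 0.481%, but the groups overlapped. The lowest KO library lay under the left-out WT library in 3 of the 4 repeats, at 0.422% against 0.430%, 0.435% against 0.464% and 0.424% against 0.443%, and above it in the other, at 0.429% against 0.407%. For single genes the left-out and KO means were 0.45% and 0.528%, and the lowest KO library lay under the left-out one in 1 of 4 repeats (0.465% against 0.491%). For clusters the means were 0.421% and 0.427%.

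Which genes these are was read from gene lists and name families. Splicing and RNA-binding protein genes held the largest share among the lists by function: 24 of the 63 that passed the filters (38.1%), against 3.72% of all. Of the Hnrnp genes alone it was 6 of 13. The 24 include Hnrnpk, Hnrnpu and Hnrnpa2b1, which package nuclear RNA, Srsf3, a splicing factor, and Sfpq and Nono, RNA-binding proteins of the nucleus. Their pooled level at 4 months was 0.455% and 0.451% in WT and 0.605% and 0.522% in mi5. Of the 24, 0 passed the test there, near the 1.49% of all low-mCH gene bodies, and 6 of the 39 other genes of the list rose. Hnrnpul1, the most covered of them, read 0.434% and 0.438% in WT and 0.508% and 0.614% in mi5 (log2 odds ratio 0.37 ± 0.39).

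Chaperone and heat shock genes followed with 10 of 29 (34.5%), among them Hspd1 and Hspa9 of the mitochondrion and Cct3, Cct5, Cct7, Cct8 and Tcp1 of the CCT ring that folds actin and tubulin. Cct3 read 0.373% and 0.483% in WT and 0.552% and 0.442% in mi5, so its groups overlapped. Translation factors and tRNA synthetases had 8 of 41 (19.5%), with Eif4g1, Eif4g2 and Eif3c of translation initiation. Their pooled level was 0.413% and 0.454% in WT and 0.606% and 0.559% in mi5, with no overlap. Glycolysis and tricarboxylic acid cycle genes had 5 of 28, among them Gpi1, Pgk1, Dld and Mdh2, and proteasome and ubiquitin genes 6 of 39. No low-mCH gene of these 4 lists passed the test at 4 months, at a median log2 odds ratio of 0.45, 0.47, 0.29 and 0.18 in that order. Of their other genes, 4 of 19, 12 of 33, 5 of 23 and 8 of 33 rose.

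Synapse and neuron-enriched genes had 8 of 69 (11.6%), among them Sv2a and Napa of vesicle release, Ppp1r9b, which encodes spinophilin of dendritic spines, Ywhag and Aplp1. Pooled, they read 0.465% and 0.433% in WT and 0.634% and 0.553% in mi5. Kif1a, outside these lists, read 0.485% and 0.438% in WT and 0.729% and 0.730% in mi5, a log2 odds ratio of 0.66 ± 0.36 that did not pass (adjusted p = 0.114, limma-moderated). The mi5 libraries of Kif1a lay close together and above both WT libraries. Chromatin and transcription machinery genes had 8 of 60, among them Setd1a, a histone methyltransferase, and cytoskeleton genes 2 of 29. Dync1h1, the dynein heavy chain, read 0.447% and 0.378% in WT and 0.639% and 0.563% in mi5.

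Markers of glia and vessels gave no low-mCH gene body: 0 of 12 for astrocytes, 0 of 13 for the oligodendrocyte lineage, 0 of 8 for microglia and 0 of 12 for vessels. Their median P40 WT levels ran from 1.93% to 2.03%. Genes of the vacuolar ATPase gave 0 of 10, and the methyltransferase and TET list 0 of 9. Transcription factors of cortical projection neurons gave 0 of 19, potassium channel (Kcn) genes 0 of 72 and collagen (Col) genes 0 of 43. At the 3.72% of all, lists of these sizes would hold few or none. The counts of 0 were therefore not told apart from that share. The list of genes of other organs gave 1 of 22 (4.55%), near the 3.72% of all. Developmental transcription factors gave 3 of 40, among them Isl1, a factor of motor neurons, and Pax1, a factor of the somites.

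**Figure D5:**
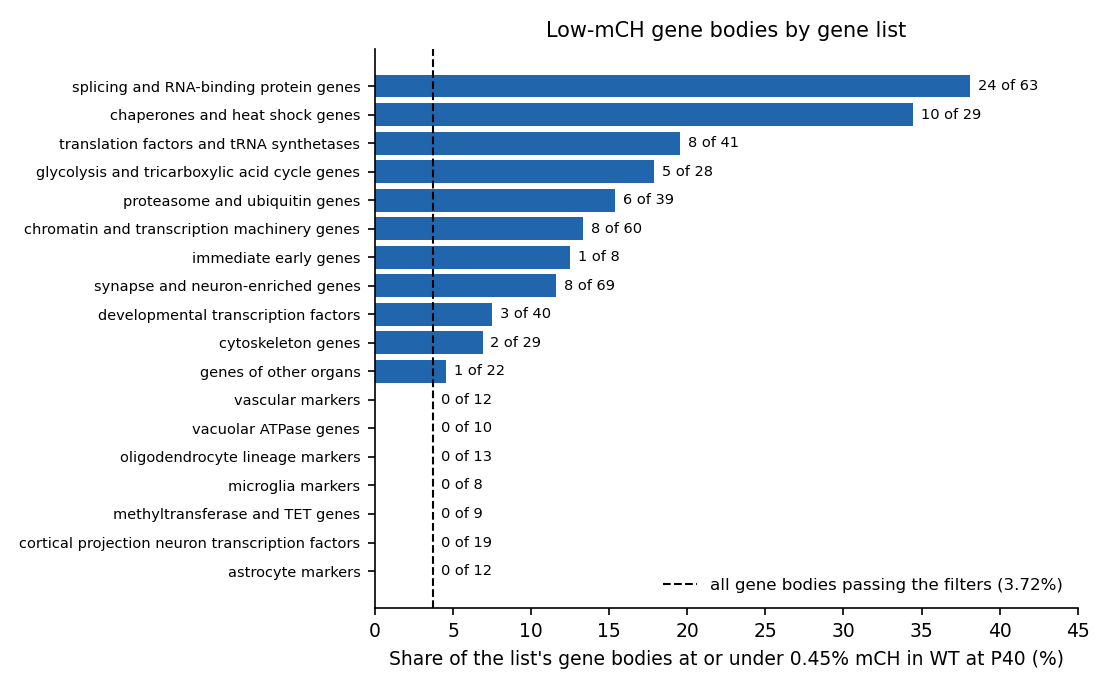
Share of each gene list's gene bodies (horizontal, percent) that were at or under 0.45% mCH in WT at P40, with counts beside the bars; the dashed line is the share among all gene bodies that passed the filters, 3.72%. Splicing genes (24 of 63) and chaperones (10 of 29) lead. Glial and vascular marker lists have 0, but are too short to tell that from the share of all.

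Klf6, a zinc finger factor of the immediate early list, was higher in the 4-month libraries than in those of P40. It read 0.291% to 0.504% in P40 WT and 0.313% to 0.548% in miR29 KO, and at 4 months 0.697% and 0.854% in WT and 1.19% and 0.976% in mi5. Every 4-month library was above every P40 library. The difference was not tested, since the choice used the P40 WT libraries and so holds their levels low. Each age has its own set of libraries, so age and set cannot be told apart. Skor1, a transcriptional corepressor with the lowest P40 WT level (0.231%), read 0.261% and 0.439% in WT and 0.247% and 0.297% in mi5. Preb, a protein of secretory vesicle budding at 0.250%, read 0.381% and 0.350% in WT and 0.509% and 0.595% in mi5.

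The gene clusters are described by name family. Vmn2r vomeronasal receptors, known from the sensing of pheromones, were the most numerous, with 37 of 114. Their pooled level at 4 months was 0.455% and 0.426% in WT and 0.455% and 0.409% in mi5. Of the 37, 0 passed, near the 1.49% of all low-mCH gene bodies, and 19 of the 77 other Vmn2r genes rose. Both mi5 libraries stood above both WT libraries in 4 of them and below in 6. Skint5, with 295825 mean calls the most covered gene body of all 538, read 0.437% and 0.431% in WT and 0.435% and 0.394% in mi5, a log2 odds ratio of -0.06 ± 0.38. The groups overlapped.

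Other families gave 8 of 11 for Skint, 7 of 10 for Pramel and 7 of 17 for Nlrp, which are known from egg and embryo, 6 of 8 for the Sult2a sulfotransferases, and 5 of 5 for the Mrgpra receptors of sensory neurons. Skint genes read 0.458% and 0.442% in WT and 0.461% and 0.435% in mi5 when pooled. Nlrp genes read 0.419% and 0.421% in WT and 0.460% and 0.397% in mi5. Mrgpra genes read 0.393% and 0.463% in WT and 0.528% and 0.493% in mi5, without overlap. Cyp3a genes, liver cytochromes with 5 of 8, read 0.391% and 0.398% in WT and 0.567% and 0.534% in mi5, also without overlap, a difference of 0.156 points, or 0.117 points with the lowest 1% level subtracted. None of the 5 Cyp3a or 5 Mrgpra genes passed the test, against 1.49% of all low-mCH gene bodies, and differences between families were not tested. At P40 the Cyp3a groups overlapped, at 0.379% to 0.463% in WT and 0.414% to 0.451% in miR29 KO. Families with near-identical copies are uncertain, since reads may be placed on the wrong copy.

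Zinc finger (Zfp) genes gave 32 of 320 (10%), with a pooled level of 0.452% and 0.466% in WT and 0.528% and 0.502% in mi5. Zfp981, the most covered of them, read 0.431% and 0.443% in WT and 0.381% and 0.45% in mi5. The Zfp groups did not overlap when pooled. Of the 32, 0 passed, near the 1.49% of all low-mCH gene bodies, and 112 of the 288 other Zfp genes rose.

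Low-mCH gene bodies also lay near each other. Of the nearest genes on either side that passed the filters, 27.9% were low-mCH themselves, against 3.73% for all genes. The share was 58.8% for cluster genes and 14.7% for single genes. Neighbours that were not low-mCH had a median WT level at 4 months of 0.512% beside cluster genes and 0.974% beside single genes, against 1.37% for all genes. In mi5 the same neighbours had medians of 0.608% and 1.72%, against 2.47%. In RefSeq, 14 of them overlapped another low-mCH gene body and share calls with it.

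By chromosome, 7 held 99 of 1058 gene bodies that passed the filters (9.36%) and 17 held 47 of 630 (7.46%). Chromosome X held 26 of 459 (5.66%), chromosome Y 5 of 10, and chromosome 14 only 6 of 519 (1.16%). Pooled levels of the X-linked genes at 4 months were 0.518% and 0.429% in WT and 0.452% and 0.500% in mi5, so the groups overlapped. The second WT and first mi5 library, with low coverage of Y-linked genes, were the lower ones of their groups there; their part in the result was not tested.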

How the data were processed

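Cortical DNA of 12 mouse libraries was analysed. Per the labels' protocols it was sonicated, spiked with unmethylated lambda DNA and bisulfite sequenced. BSMAP and the mm9 build are named, with no version, per the submitters' processing notes. The authors deposited, per RefSeq transcript, the count of non-CG calls that were methylated, and the total number of calls as an expected count. The authors' deposited expected counts are whole for 35.7% to 62.2% of values, by a derivation not given in the sources used here, and were rounded for tests.

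Of 36672 rows, 300 without a symbol in the RefSeq GRCm38.p6 table and 1395 with repeated identifiers were left out, and the row with the most calls stood for a symbol. Genes with at least 500 calls in every library (19826) were fitted with a logistic quasi-binomial model over all 12 libraries, with 1 mean for each group. Its dispersion (median 5.13) was moderated with limma 3.58.1 in R 4.3.3 (squeezeVar, trend, robust), and p-values were Benjamini-Hochberg adjusted over all tested genes. Effects are log2 odds ratios. The model was tested on simulated data, and the outcome is not given here. Levels, intervals and plots were made with matplotlib 3.10.9, scipy 1.17.1, pandas 2.3.3 and numpy 2.4.6 in Python 3.11.15.

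The members and lists were chosen with earlier results of these data known, and the kinds and name families after the values were seen. Named genes are, among the low-mCH gene bodies with a proper symbol: up to 8 with the largest change in each direction past the threshold at 4 months with groups that do not overlap, the 5 lowest at P40, the 5 most covered, 3 on either side of the limit, and the most covered of each list. Some genes this rule names are not reported here. Genes given beside these as list examples were chosen after their values were seen. Alternatives covered the test, scale, filters, centring, background, replicate block, the choice itself and leaving out each library.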

Additional observations from a re-analysis of the deposited data

Results flagged for a closer look

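In 86 groups of 4 P40 libraries (the levels of the named genes and of the pooled kinds), 8 held a library far from the other 3, where chance flags about 1 group in 20. Ranbp1 read 0.423% in the first miR29 KO library and 0.534% to 0.555% in the others. In the fourth miR29 KO library Edrf1 read 0.508% (others 0.655% to 0.683%) and Lman2 0.607% (others 0.767% to 0.793%). That library was also the lowest of its group over all tested genes (2.04%, others 2.53% to 2.91%). The part of this in the flags was not tested. Skint5 read 0.593% in the second miR29 KO library and 0.377% to 0.403% in the others. Klf6 read 0.313% in the third miR29 KO library and 0.514% to 0.548% in the others. In WT, Preb read 0.212% in the first library (others 0.263% to 0.269%) and Pramel42 0.156% in the second (others 0.303% to 0.310%). Zfp981 read 0.616% in the fourth WT library (others 0.383% to 0.417%).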

How the results depend on the processing

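The main values were 8 genes past the threshold, a pooled gain of 0.0714 points, a median log2 odds ratio of 0.28 and 538 gene bodies. The count higher past the threshold was 58 with limma on percent levels, where 3 were lower and 72.3% of all tested genes were higher. With limma on log2(percent + 0.1), + 0.5 and + 0.02 it was 44, 51 and 43. There 3, 3 and 2 were lower, and 73.5%, 73.6% and 73.3% of all tested genes were higher. It was 48 for the 4-month libraries alone (73.4% of all tested genes), 18 without trend and robust moderation (54.6%), 5 with the lowest 1% level subtracted (55.9%) and 0 with libraries centred, where it was 0 over all tested genes too. It ranged from 0 to 24 when 1 library was left out of the fit or of the choice. With a limit of 0.40% the choice held 242 gene bodies, of which 4 passed. With 0.50% it held 877, of which 19 passed, with a pooled gain of 0.102 points. With at least 10000 mean calls it held 220, of which 2 passed. These counts come from the main fit, in which 58.8% of all tested genes rose. Repeated on 3 WT libraries the choice held 516 to 607. The pooled gain was 0.0334 points with the lowest 1% level subtracted and 0.0547 to 0.0894 points with 1 library left out of the comparison or the choice. The median log2 odds ratio was -0.59 with libraries centred, which takes the shift common to all genes out by construction, and 0.20 to 0.32 with 1 library left out. Other causes were not tested. limma gave no median on the odds ratio scale, so none is given. The labels number replicates within a group. Same-numbered libraries of 4 months had a correlation of deviations of -0.0886, so the numbers were not taken to pair them; with the number as a replicate block 7 passed (62.2% of all tested genes), at a median log2 odds ratio of 0.28, and Farsa and Nckipsd no longer did. With no minimum of calls 6 passed, again without these. At P40 no KO library but the fourth (0.109) was closest to the WT library of its own number. Further choices were added after seeing the data: without clustered and uncharacterised members 7 passed at a median of 0.36, and without X and Y 8 at 0.28. Both counts also come from the main fit, in which 58.8% of all tested genes rose. With about 30 methylated calls per gene at 4 months, and with the dispersion of the fit, small changes in single genes could not be seen.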
